A study of Mus musculus with 4 samples.

Results

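The 10 genes described here encode RNA-binding proteins and partners that store maternal mRNA or hold back its translation: Zar1, Zar1l, Ybx2, Cpeb1, Dazl, Ddx4, Ddx6, Lsm14b, Eif4enif1 and Eif4e1b. They were taken by gene name from the deposited count table. All 10 were found among its 55291 features. Their transcripts were followed in mouse zygotes, the fertilised eggs before the first division, in 4 samples with 1 sample in each group. The MO control and the MO injected zygotes form 1 experiment, labelled as H3.3 MO. The S31A control and the S31A injected zygotes form another, labelled as H3.3 S31A. H3.3 is a variant of histone H3 that enters chromatin outside DNA replication. MO is not spelled out in the labels and in embryo work usually stands for morpholino, an antisense oligonucleotide. S31A is the usual notation for serine 31 of H3.3 replaced by alanine. What the controls received, the mouse strain, the hours after fertilisation and the number of zygotes in a library are not stated in the labels. Each sample had 2 columns of counts, called libraries 1 and 2 below. The sources used here do not say if these came from different embryos, so n is 1 sample per group and the spread between libraries may be technical.

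A full-grown oocyte stops transcribing and lives on mRNA it made earlier. Much of that mRNA is kept silent with a short poly(A) tail and a cap that repressor proteins hold closed, and it is lengthened and translated when the oocyte matures. ZAR1, YBX2, LSM14B, DDX6 and the eIF4E transporter, the product of Eif4enif1, are known from oocytes as components of stored mRNA-protein particles. CPEB1 and DAZL bind the 3′ ends of dormant mRNAs and take part in both their silencing and their later activation. After fertilisation the maternal stores are progressively cleared as the genome of the embryo is switched on.

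The 3′ ends of the members' own transcripts were read from GENCODE M21 on mm10. They are shown because the poly(A) signal, bound by the cleavage and polyadenylation factor CPSF, and the cytoplasmic polyadenylation element, bound by CPEB1, are the sites through which a stored mRNA is lengthened. AATAAA or ATTAAA was searched on the transcript strand in the last 100 bases, and the hexamer nearest the end is in capitals for the 4 members with the highest levels per length and for Ddx4.
Zar1, chr5:72577117-72577146, minus strand: ataaagcctgtgAATAAAaggtattgcaaa
Dazl, chr17:50279400-50279429, minus strand: cttgtatacacgAATAAAacctttttttca
Lsm14b, chr2:180035429-180035458, plus strand: aaatgcaaactaAATAAAcattggactctt
Eif4enif1, chr11:3244542-3244571, plus strand: ttcttttggtttATTAAAagttacatatgc
Ddx4, chr13:112598344-112598373, minus strand: attttccttgcaAATAAAagatgaaacaca

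Of the 9 members that could be assessed, 8 held such a hexamer, against 78.8% of 19287 genes. Ybx2 was the member without one, and Zar1l was not assessed because its annotated 3′ UTR has 14 bases. TTTTAT or TTTTAAT, forms of the cytoplasmic polyadenylation element, was found in the same window in 2 of the 9, against 17.9% of all genes. These were Ybx2 and Ddx4, with the element in capitals.
Ybx2, chr11:69941532-69941561, plus strand: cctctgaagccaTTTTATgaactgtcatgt
Ddx4, chr13:112598371-112598400, minus strand: acaaatgtttgcTTTTATaatatacagatt

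The Ddx4 element lies 21 bases upstream of its AATAAA. These matches describe letters in a window and not bound sites.

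The depth was 5661621 to 13233371 counts per library, and 0.389% to 0.743% of the counts fell on the 10 members. The MO libraries held 13159 to 15156 genes with counts and 3.47% to 5.55% mitochondrial counts. The S31A libraries held 11372 to 11791 genes and 7.13% to 10.4% mitochondrial counts. All 12 egg markers had counts in every library, with summed levels of 6107 to 14687 CPM, which are counts relative to library size after scaling by edgeR's TMM factors. Of 15 cumulus and granulosa cell markers, 11 were at 0 in all 8 libraries, Fshr, Foxl2 and Amh among them, and the summed level was 35.1 to 191 CPM. Most of it was Cyp19a1, at 35.04 to 165 CPM over the libraries. Kitl was at 10.9 to 22.9 CPM in the MO libraries and 26.3 CPM in S31A injected library 1, with 1 count in all in the other S31A libraries. Of 7 sperm markers, 5 were at 0 in all 8 libraries and the summed level was 1.30 to 6.74 CPM. As a check of the labels, H3f3b was at 2199 and 1549.6 CPM in both MO control libraries and at 2.30 and 10.5 CPM in the MO injected libraries. Its partner H3f3a was at 462 and 586 CPM in both MO control libraries and at 8.04 and 52.4 CPM in the MO injected libraries. These values tell the MO injected from the MO control libraries. How MO acts on the transcripts was not tested. In the S31A experiment the log2 ratio of injected to control was 0.66 for H3f3b and -0.12 for H3f3a.

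Levels were compared between genes per kilobase of deposited gene length. Zar1 and Dazl led, with medians over the 8 libraries of 411 and 409 CPM per kilobase, followed by Lsm14b at 283 and Eif4enif1 at 212. Each of these 4 genes overlapped its neighbours in this order, although the lowest library of Dazl, at 293 CPM per kilobase, was above the highest of Eif4enif1, at 289. Eif4enif1 and Dazl lay above Eif4e1b in every library, since the highest library of Eif4e1b was at 114.6 CPM per kilobase and the lowest of Eif4enif1 at 123.5. Zar1 and Lsm14b reached down to 109.6 and 73.9 CPM per kilobase in single libraries, so their ranges over libraries overlapped that of Eif4e1b. Within each library Zar1 still lay above Eif4e1b. Lsm14b lay below it in MO injected library 2, at 73.9 against 114.6 CPM per kilobase. Eif4e1b, Cpeb1, Zar1l and Ybx2 had medians of 65.5, 50.5, 42.5 and 41.5 CPM per kilobase and overlapped one another in that order. Ddx4 and Ddx6 were lowest, with medians of 6.05 and 3.01 CPM per kilobase, and their ranges overlapped. The highest library of Ddx4, at 11.5, was under the lowest of Ybx2, at 15.97. Of the 9 neighbouring pairs in this order, 7 overlapped. The median percentile among genes with any count was 99.4 for Zar1, 94.0 for Cpeb1 and 63.6 for Ddx6. The deposited length of Zar1, 3465 bases, also covers a transcript with a retained intron, and its spliced form has 1429 bases, so its level per kilobase depends on which form was present. Within single libraries Dazl was first in 5, Zar1 in 2 and Lsm14b in 1.

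**Figure D1:**
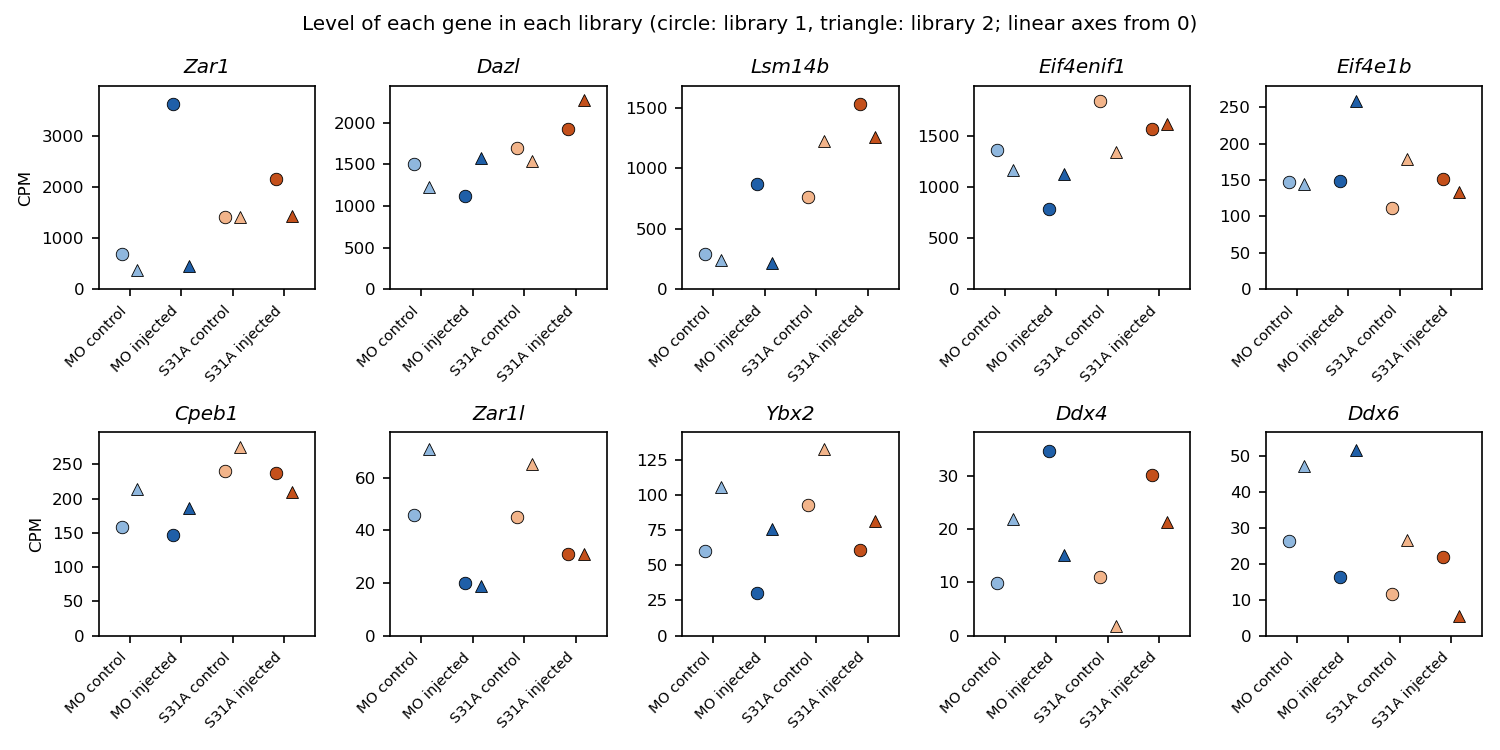
Level of each of the 10 genes in CPM on linear axes from 0, with 1 panel for each gene and the 4 samples along the horizontal axis; circles are library 1 and triangles library 2. Zar1 and Lsm14b stand high in MO injected library 1 but not in library 2, and Zar1l is low in both libraries of each injected sample.

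The members differed widely in how steady they were. The highest library was 1.87 times the lowest for Cpeb1, 2.03 times for Dazl, 2.33 times for Eif4e1b and 2.34 times for Eif4enif1. It was 3.73 times for Zar1l, 4.39 times for Ybx2, 7.18 times for Lsm14b, 9.58 times for Zar1, 9.65 times for Ddx6 and 19.7 times for Ddx4. Part of this spread lay between libraries of a single sample. In the MO injected sample 5 of the 10 members were at least 2-fold apart between its libraries: Zar1 by 7.92-fold, Lsm14b by 4.08-fold, Ddx6 by 3.14-fold, Ybx2 by 2.50-fold and Ddx4 by 2.27-fold. The count was 1 in the MO control (Ddx4), 2 in the S31A control (Ddx4 and Ddx6) and 1 in the S31A injected sample (Ddx6). Among all genes measured, the share at least 2-fold apart between the libraries of a sample was 24.8% in the MO control, 39.8% in the MO injected, 40.4% in the S31A control and 41.0% in the S31A injected sample.

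**Figure D2:**
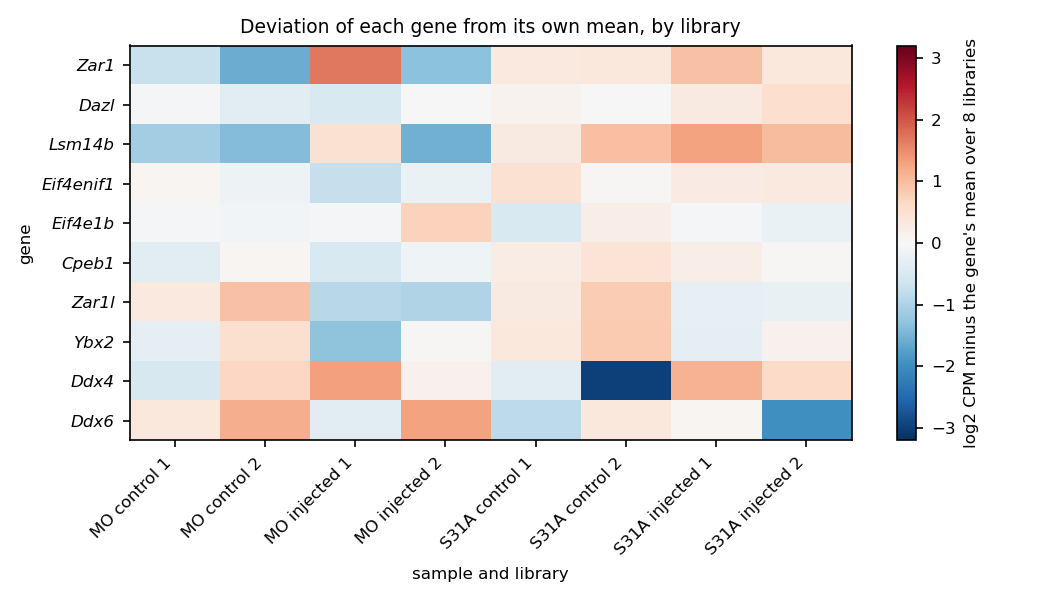
Log2 CPM of each member in each library minus that gene's mean over the 8 libraries, on a colour scale from -3.2 to 3.2. Zar1 in MO injected library 1 and Ddx4 in S31A control library 2 stand apart from the other library of their samples.

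The MO experiment compared zygotes labelled as injected with H3.3 MO with their control. The value given is the log2 ratio of the CPM of summed counts, with an exact 95% Clopper-Pearson interval that covers counting error only, over the 8110 genes that reached 10 CPM in 1 or both samples. All 10 members were measured. At least 2-fold higher were 2 members, Zar1 and Lsm14b, against 11.3% of all genes measured, and at least 2-fold lower was 1, Zar1l, against 12.5%. The members' median log2 ratio was -0.06, and that of all genes was 0.03. The injected libraries lay above both control libraries for 1 member, Eif4e1b, against 19.2% of all genes, and below both for 2, Zar1l and Eif4enif1, against 21.3%. Both 2-fold apart and not overlapping was 1 member, Zar1l, against 17.7% of all genes. In these bulk samples fewer cells with a transcript and less of it per cell cannot be told apart.

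Zar1l, the close relative of Zar1 that also encodes a zinc-binding RNA-binding protein, was the member with both features. It was at 46.0 and 70.9 CPM in both MO control libraries and at 20.1 and 19.0 CPM in the injected libraries. Both injected libraries were therefore low, and they differed little from each other. The log2 ratio was -1.45 (interval -1.62 to -1.29), which is 2.73-fold lower, and it ranged from -1.80 to -1.17 when each library was left out in turn. Run over the libraries, edgeR's quasi-likelihood test gave an unadjusted p of 0.0222 and a Benjamini-Hochberg adjusted p of 0.825.

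Zar1, required for the oocyte-to-embryo transition, was at 697 and 379.6 CPM in both MO control libraries and at 3636 and 459 CPM in the injected libraries. The summed log2 ratio of 2.08 (2.05 to 2.11) came from injected library 1, since injected library 2 lay between both controls. Without injected library 1 the log2 ratio was -0.34. Lsm14b, a LSM-domain protein of oocyte storage particles, also differed between its injected libraries, with 288 and 240.4 CPM in the controls, against 872 and 214 CPM in the injected libraries. Its log2 ratio was 1.21 (1.16 to 1.26), and -0.36 without injected library 1.

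Egg markers differed in that library in both directions. Its summed egg marker level was 13260.2 CPM, against 6107 to 9733 CPM in the other MO libraries. The linker histone H1f8 stood at 5338 CPM in it and 1214 CPM in injected library 2, and the growth factor Gdf9, chosen after its values were seen, at 4674 and 490.1 CPM. Bmp15 and Ooep went the other way, at 1293 and 133 CPM in this library, the lowest of the 4 MO libraries, against 2800.2 to 5591 CPM and 219.5 to 750.3 CPM in the others. The median level over the 12 markers was 162 CPM, within the 137 to 321 CPM of the other MO libraries. The part of this library's composition in the Zar1 and Lsm14b values was not tested.

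Among the cap-side regulators, Eif4enif1 stood at 1362 and 1169.9 CPM in the MO controls and at 787 and 1126 CPM in the injected libraries. Its log2 ratio was -0.42, with both injected libraries below both controls, although injected library 2 was close to control library 2. Eif4e1b, the egg form of the cap-binding protein eIF4E, stood at 147 and 144 CPM in the controls and at 148 and 258 CPM in the injected libraries. Its log2 ratio was 0.46, and -0.01 without injected library 2; with total-count scaling its libraries overlapped. Ddx6, an RNA helicase of repressed mRNA particles, stood at 26.4 and 47.2 CPM in the controls and at 16.3 and 51.6 CPM in the injected libraries. These overlapped, with a log2 ratio of -0.11 that ranged from -1.12 to 0.54 without each library in turn.

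Dazl and Cpeb1, the poly(A)-side regulators, were close to their controls. Dazl stood at 1502 and 1230.2 CPM in the MO controls and at 1119 and 1575 CPM in the injected libraries, a log2 ratio of -0.04. Cpeb1 stood at 159 and 214 CPM in the controls and at 147 and 187 CPM in the injected libraries, a log2 ratio of -0.09. The groups overlapped for both genes. Ybx2, a Y-box protein that coats mRNA in germ cells, stood at 59.9 and 105 CPM in the controls and at 30.1 and 75.4 CPM in the injected libraries, with overlap and a log2 ratio of -0.62, which was -0.08 without injected library 1 and -1.40 without injected library 2. Ddx4, the germ cell helicase also called VASA, stood at 9.78 and 21.9 CPM in the controls and at 34.6 and 15.2 CPM in the injected libraries. It overlapped too, with a log2 ratio of 0.92 that was 0.03 without injected library 1.

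**Figure D3:**
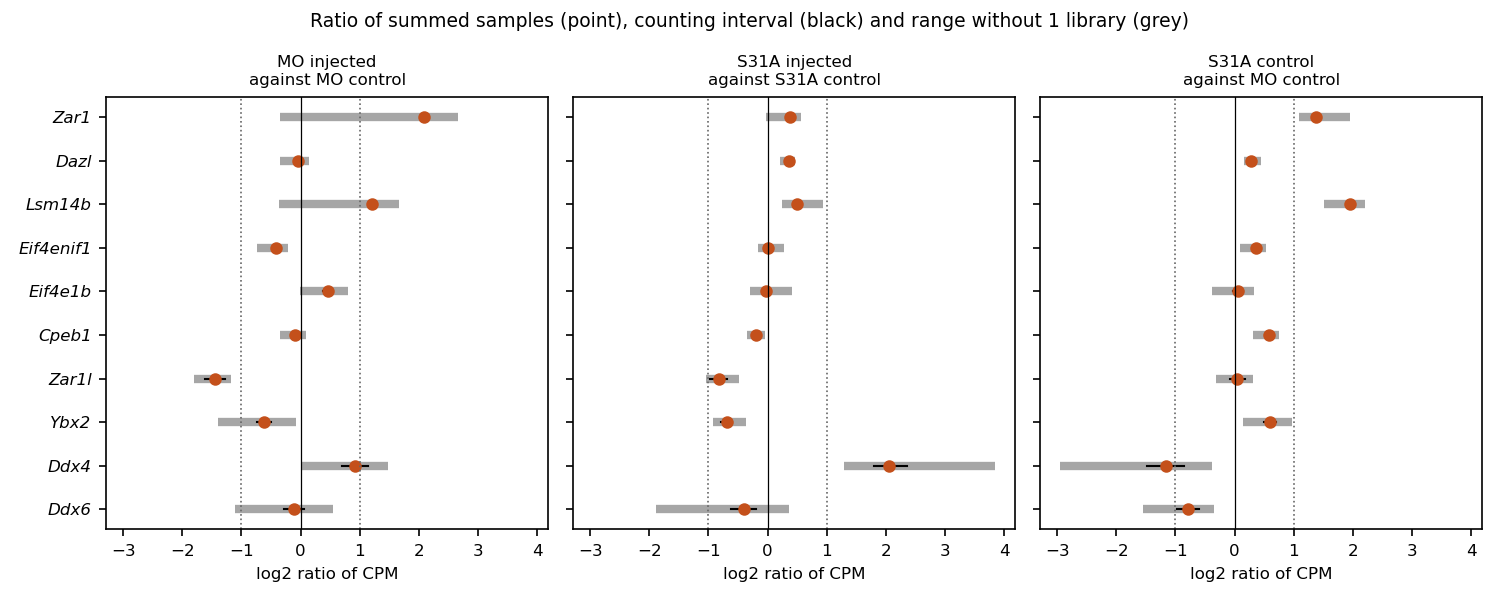
Log2 ratio of summed CPM for each member in the 3 comparisons (points), with exact 95% intervals for counting error (black) and the range when each library is left out in turn (grey); dotted lines mark a 2-fold difference. The grey ranges of Zar1 and Lsm14b cross 0 in the MO comparison and lie above 1 between the controls, and that of Zar1l stays below 0 with both injections.

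In the S31A experiment, the sample labelled as S31A injected was set against a separate control over 8191 genes. At least 2-fold higher was 1 of the 10 members, Ddx4, against 14.1% of all genes, and none was at least 2-fold lower, against 16.1%. The members' median log2 ratio was -0.01, and that of all genes 0.02. Both injected libraries lay above both controls for 4 members, Zar1, Dazl, Ddx4 and Lsm14b, against 19.8% of all genes, and below both for 3, Zar1l, Ybx2 and Cpeb1, against 19.8%. With total-count scaling, 2 members, Dazl and Ddx4, remained higher without overlap. The share of all genes under that scaling is not given here, so this count has no background. Both 2-fold apart and not overlapping was 1 member, Ddx4, against 20.6%.

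Ddx4 stood at 11.03 and 1.76 CPM in the S31A control libraries and at 30.1 and 21.3 CPM in the injected libraries. Its log2 ratio was 2.06 (1.80 to 2.35), or 4.16-fold. Ddx4 passed the 10 CPM filter only through the injected sample, where it is high. The summed level was 26.5 CPM there and 6.29 CPM in the S31A control. Control library 2 was the low one: over the libraries left out in turn the ratio ranged from 1.29 to 3.85. The control libraries of this gene were 5.74-fold apart, more than the injected sample was above its control.

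Zar1l again stood lower, at 44.9 and 65.2 CPM in the S31A controls, against 31.04 and 31.15 CPM in the injected libraries. The log2 ratio was -0.83 (-0.97 to -0.69) and ranged from -1.03 to -0.48 without each library in turn. Zar1 stood at 1424 and 1426 CPM in the controls and at 2162 and 1444 CPM in the injected libraries, a log2 ratio of 0.38. Injected library 2 differed little from the controls, and without injected library 1 the ratio was -0.03. Lsm14b stood at 766 and 1223 CPM in the controls and at 1535 and 1263 CPM in the injected libraries, a log2 ratio of 0.50. The summed egg marker level was 14687 CPM in injected library 1, against 10223 to 11710 CPM in the other S31A libraries. The median over the 12 markers was 241 CPM, against 217 to 239 CPM. The part of this library's composition in the Zar1 and Lsm14b values was not tested.

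Dazl stood at 1702 and 1547 CPM in the S31A controls and at 1924 and 2271 CPM in the injected libraries, a log2 ratio of 0.36. Ybx2 stood at 93.1 and 132 CPM in the controls and at 60.9 and 81.1 CPM in the injected libraries, a log2 ratio of -0.69. Cpeb1 stood at 241 and 276 CPM in the controls and at 237 and 209.6 CPM in the injected libraries, a log2 ratio of -0.20. Dazl was thus above, and Ybx2 and Cpeb1 below, in both injected libraries, by less than 2-fold.

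The other 3 members overlapped. Eif4enif1 stood at 1843 and 1345 CPM in the S31A controls and at 1571 and 1623 CPM in the injected libraries, a log2 ratio of 0.01. Eif4e1b stood at 111 and 179 CPM in the controls and at 151 and 133 CPM in the injected libraries, a log2 ratio of -0.03. Ddx6 stood at 11.7 and 26.6 CPM in the controls and at 21.9 and 5.35 CPM in the injected libraries, a log2 ratio of -0.40 that ranged from -1.88 to 0.36 without each library in turn.

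The comparison of the S31A control with the MO control, over 8266 genes, uses samples that also serve the comparisons above. At least 2-fold higher in the S31A control were 2 members, Zar1 and Lsm14b, against 13.6% of all genes, and 1, Ddx4, was at least 2-fold lower, against 16.2%. The members' median log2 ratio was 0.32, and that of all genes 0.05. Both S31A control libraries lay above both MO control libraries for 4 members, Zar1, Cpeb1, Dazl and Lsm14b, against 21.2% of all genes. No member lay below in both, against 25.2%. Both 2-fold apart and not overlapping were 2 members, Zar1 and Lsm14b, against 24.2%.

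Lsm14b had a log2 ratio of 1.95 (1.90 to 1.999), or 3.86-fold, which ranged from 1.52 to 2.21 without each library in turn. Zar1 had a log2 ratio of 1.37 (1.34 to 1.41), or 2.59-fold, with a range of 1.08 to 1.95. Cpeb1 was higher by 0.57 and Dazl by 0.27 on the log2 scale. Ddx4 passed the 10 CPM filter only through the MO control, at 14.1 CPM, against 6.29 CPM in the S31A control. Its log2 ratio was -1.16, with overlapping libraries. It was -0.39 when S31A control library 2 was left out and -2.95 when library 1 of that sample was. Ybx2 at 0.59, Eif4enif1 at 0.36, Eif4e1b at 0.06, Zar1l at 0.04 and Ddx6 at -0.78 overlapped too. Of the 12 egg markers, 3 were at least 2-fold higher in the S31A control and none at least 2-fold lower, with a median log2 ratio of 0.51. H1f8 stood at 2167 and 2402 CPM there, against 1180.2 and 374 CPM in the MO control. Other egg markers were lower in the S31A control by less than 2-fold. Among them, Ooep at a log2 ratio of -0.92 and Dppa3 at -0.18 had libraries that did not overlap. The experiments differ in mitochondrial share and in the number of genes with counts, as given above. How much of the Zar1 and Lsm14b difference moves with these was not tested.

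Tests were also run over the libraries, and their p-values reflect spread among libraries and not among samples. edgeR with an adjusted p under 0.05 called 0 members in each comparison, against 0.0% of all genes in the MO, 0.0244% in the S31A and 0.0% in the control comparison. At an unadjusted p under 0.05 edgeR had 1, 0 and 2 members. The share of all genes under that threshold is not given here, so these counts have no background. DESeq2 called 0, 0 and 2 members, against 0.666%, 7.34% and 4.32% of all genes. The 2 members called by DESeq2 between controls were Lsm14b, with an adjusted p of 2.85e-07, and Zar1, with an adjusted p of 0.000471. The edgeR adjusted p of these was 0.287 and 0.296, and 0.00613 and 0.0192 when the genes were limited to 50 CPM or more.

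Some members were also set against their relatives in the same library, which needs no scaling between libraries. The share is of counts per kilobase. Ybx2 made up 19.8% to 27.1% of the Y-box genes Ybx1, Ybx2 and Ybx3 in the MO libraries and 40.8% to 53.2% in the S31A libraries. Cpeb1 made up 44.1% to 58.0% of Cpeb1 to Cpeb4 in the MO libraries and 65.1% to 76.5% in the S31A libraries. Lsm14b made up 25.2% to 59.3% of Lsm14a and Lsm14b in the MO libraries and 61.9% to 77.1% in the S31A libraries. For these 3 families every S31A library, control or injected, lay above every MO library. The share of other gene families that separate in this way is not given here, so this count has no background. In CPM, 21.2% of all genes were higher and 25.2% lower without overlap between the 2 controls alone. The Lsm14b share came close, at 59.3% in MO injected library 1.

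For the Y-box genes the relatives differed as well as Ybx2. Ybx1, the form of most tissues, stood at 132 and 135 CPM in both MO control libraries and at 35.8 and 52.6 CPM in the S31A control. Ybx2 itself stood at 59.9 and 105 CPM and at 93.1 and 132 CPM in the same samples, so that these libraries overlapped. The relatives of Cpeb1 differed too. Cpeb3 and Cpeb4 were lower in the S31A control than in the MO control without overlap, at log2 ratios of -0.798 and -1.09. Cpeb1 was at 0.575, and Cpeb2 did not pass the 10 CPM filter. Lsm14a, by contrast, stayed within 970.0 to 1345 CPM over all 8 libraries while Lsm14b varied 7.18-fold.

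Eif4e1b made up 12.1% to 17.2% of the eIF4E genes in the MO libraries and 15.6% to 22.7% in the S31A libraries, which overlapped. Zar1 made up 79.7% and 58.0% of Zar1 plus Zar1l in the MO control libraries and 97.9% and 86.2% in the MO injected libraries. It made up 89.1% and 84.95% in the S31A control libraries and 94.7% and 92.3% in the S31A injected libraries. In each experiment both injected libraries thus had a larger Zar1 share than both control libraries. With 1 sample per group this difference has no test, and the share of other gene pairs that differ alike is not given here. The Zar1 share rests on the same Zar1 and Zar1l counts as the values above.

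**Figure D4:**
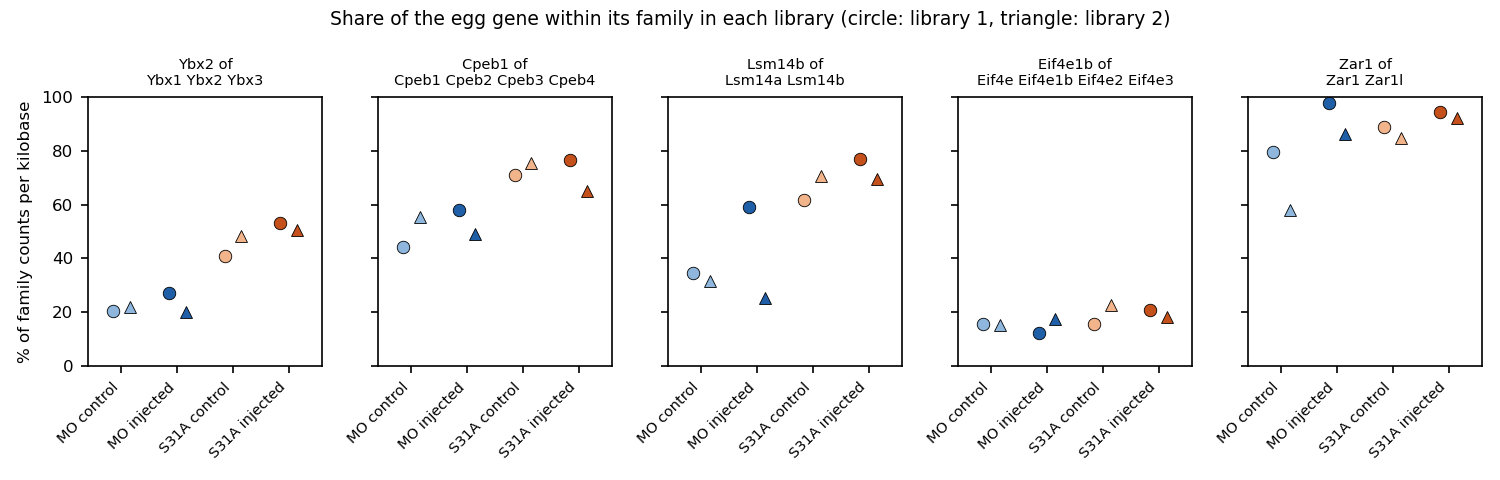
Share of Ybx2, Cpeb1, Lsm14b, Eif4e1b and Zar1, each within its gene family, in percent of counts per kilobase. Circles are library 1 and triangles library 2 of each sample. Ybx2, Cpeb1 and Lsm14b take larger shares in all 4 S31A libraries than in all 4 MO libraries, and the Zar1 share is larger in the injected libraries of each experiment.

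The promoters of Zar1, Lsm14b and Zar1l are printed because the first pair stood high together in the same libraries while Zar1l did not. Part of that variation lay between libraries of a single sample, and a relation of promoter sequence to these levels was not tested. Each runs from 250 bases before to 50 bases after the RefSeq start on GRCm38.p6. CANNTG, the E-box core, is in capitals and was searched on both strands, on which it reads alike.
Zar1, chr5:72581035-72581334, minus strand: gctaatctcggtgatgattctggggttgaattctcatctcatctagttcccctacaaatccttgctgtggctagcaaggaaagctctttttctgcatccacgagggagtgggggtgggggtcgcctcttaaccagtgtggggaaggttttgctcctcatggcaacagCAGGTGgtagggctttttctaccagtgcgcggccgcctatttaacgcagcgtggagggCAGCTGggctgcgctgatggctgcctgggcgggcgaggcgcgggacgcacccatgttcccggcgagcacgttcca
Lsm14b, chr2:180024737-180025036, plus strand: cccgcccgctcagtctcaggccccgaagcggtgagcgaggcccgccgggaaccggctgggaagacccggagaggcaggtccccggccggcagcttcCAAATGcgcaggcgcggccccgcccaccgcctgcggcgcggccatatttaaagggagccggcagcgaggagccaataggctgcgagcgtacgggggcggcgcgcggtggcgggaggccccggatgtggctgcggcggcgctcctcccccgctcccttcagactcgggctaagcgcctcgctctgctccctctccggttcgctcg
Zar1l, chr5:150518110-150518409, minus strand: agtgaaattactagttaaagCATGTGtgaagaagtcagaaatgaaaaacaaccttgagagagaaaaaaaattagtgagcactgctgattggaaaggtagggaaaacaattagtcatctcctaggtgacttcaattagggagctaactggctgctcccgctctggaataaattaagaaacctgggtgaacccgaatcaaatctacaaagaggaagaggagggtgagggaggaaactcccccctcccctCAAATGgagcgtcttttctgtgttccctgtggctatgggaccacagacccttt

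The 8 members matched in the RefSeq table had 12 promoters there, and CANNTG was found in 8 of the 12, or 66.7%, against 72.3% of 32544 promoters. CAGGTG or CACCTG, which is contained in CANNTG, was found in 3 of the 12, or 25.0%, against 20.3%: 1 each of Zar1, Ybx2 and Cpeb1. Both shares were near the background. The GC content was 58.7% for Zar1, 74.3% for Lsm14b and 44.3% for Zar1l, and the median of all promoters was 53.0%.

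In the reference Zar1 lies at chr5:72576806-72581254 on the minus strand of mm10, and Zar1l at chr5:150507055-150518164 on the minus strand. Lsm14b lies at chr2:180024987-180035465 on the plus strand. No exon of a member overlapped that of another feature in the table. Near-identical copies could share reads with 4 members. Eif4e1b matched Gm5705 at 95.0% identity over 726 bases, and Gm5705 held 5222 counts in all; with these added the Eif4e1b log2 ratio was 0.41 in the MO and -0.08 in the S31A experiment. Ddx6 matched Gm13410 at 94.5% over 1218 bases, with 236 counts, and Zar1 matched Gm15847 at 95.2% over 1083 bases, with 52 counts. The copy of Eif4enif1, Gm26601, was not analysed here.

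Further genes of mRNA storage were described in 4 lists, whose counts stand against the shares of all genes given above: 11.3% higher and 12.5% lower with MO, 14.1% and 16.1% with S31A, and 13.6% and 16.2% between controls. Among 10 relatives of the members, 7 were measured in each comparison. None was 2-fold apart with MO. With S31A, 2 were at least 2-fold lower, Ybx3 at a log2 ratio of -1.12 and Ybx1 at -1.004, and none was higher. Between the controls 2 were lower in the S31A control, Ybx1 at -1.53 and Cpeb4 at -1.09. The lists' medians were -0.45, -0.06 and -0.80 in the MO, S31A and control comparison.

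Of 27 other storage and repression proteins, 20 were measured with MO, where 2 were lower and none higher, and the median log2 ratio was 0.06. With S31A 21 were measured, 2 were higher and 4 lower, and the median was 0.09. Among the lower ones were Fmr1 at -2.45, the egg poly(A)-binding protein gene Pabpn1l at -1.91 and Msi2 at -1.22. Between controls 2 of 21 were higher, Msi2 at 2.37 and Pabpn1l at 1.55, and 2 lower, Eif4ebp2 at -2.35 and Stau2 at -1.57, with a median of 0.41.

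Of 10 genes of cytoplasmic polyadenylation, 8 were measured. With MO 1 was lower, the deadenylase gene Parn, at 37.2 and 65.6 CPM in the controls, against 15.8 and 19.2 CPM in the injected libraries, a log2 ratio of -1.44. With S31A 2 were higher, the cytoplasmic poly(A) polymerase gene Tent2 at 1.32 and Parn at 1.04, and 1 was lower, Cpsf2 at -1.17. Between controls Tent2 was lower in the S31A control, at -1.63. The medians were -0.10, -0.03 and -0.04. The S31A values of Parn were 51.9 and 11.5 CPM in the controls, against 69.7 and 56.0 CPM in the injected libraries, so that only control library 2 was far below. The difference between its MO and S31A ratios was not tested.

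All 9 dormant mRNAs known to be under CPEB1 or DAZL were measured. With MO 3 were at least 2-fold higher and none lower, and the median log2 ratio was 0.41. Dcp1a, a decapping cofactor gene, was the one whose libraries did not overlap, at 349 and 365 CPM in the MO controls, against 1085 and 624 CPM in the injected libraries, a log2 ratio of 1.38. Mos and Plat were the others, at 93.1 and 465 CPM in injected library 1 and at 12.3 and 105 CPM in injected library 2, where both lay below both controls. With S31A 2 were higher and none lower, with a median of 0.52. Mos, at 17.8 and 22.1 CPM in the S31A controls, was at 77.2 CPM in injected library 1 and at 13.9 CPM in injected library 2. Both genes were named after their values were seen. Tex19.1 stood at 22.1 and 15.2 CPM in the S31A controls and at 57.2 and 38.4 CPM in the injected libraries, a log2 ratio of 1.40. Between controls Tex19.1 was lower in the S31A control, at -1.85, and the median was -0.22.

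The mean profile of the 10 members, each centred on its own mean log2 CPM, was highest in S31A injected library 1, at 0.36, and lowest in MO control library 1, at -0.25. Over the 8 libraries of 4 samples, the genes most like it among 7460 were Fam184a (Pearson r 0.958), Sin3b (0.953) and Sfpq (0.951). These r values describe libraries that share samples and depth, and no p is given. Fam184a stood between 24.7 and 101 CPM and Sin3b between 55.3 and 166 CPM, with S31A injected library 1 highest for both.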

How the data were processed

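The authors deposited unnormalized whole-number counts for each gene, beside gene lengths in bases, per the file headers. Per the submitters' processing notes, the tools named were FastQC, Bowtie2, featureCounts and DESeq2 with mm10. Their versions, the annotation release and the strand setting are not stated in the labels. Per the labels' protocols, cDNA was amplified by PCR before library preparation. Since Bowtie2 makes no spliced alignments, a read that crosses an exon junction can be lost or land on an intronless copy. No per-sample column was left out. Between the libraries of a sample, chi-square per degree of freedom over genes was 51.5 to 130.4, so they were not copies of 1 library.

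Counts were summed per sample and scaled by TMM (edgeR 4.0.16, R 4.3.3), with a prior count of 2 for log2 ratios. Single libraries were scaled by TMM over all 8. Genes needed 10 CPM in 1 or both samples, and called means 2-fold apart. With 1 sample per group there is no test between groups. edgeR's quasi-likelihood test and DESeq2 1.42.0 (Benjamini-Hochberg adjustment) were run over libraries only. The scripts were tested on simulated data. Copies were sought with BLAST+ 2.17.0 at 85% identity over 100 bases or more. Of the feature symbols, 96.4% matched GENCODE M21, the 10 members with the same coordinates. PCR copies cannot be told from molecules, so intervals cover counting error only.

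The members and lists were chosen with earlier results of these data known. Named genes were the members, up to 4 genes per list and comparison that were 2-fold apart without overlap, H3f3a and H3f3b, and the 3 genes most like the members' mean profile. Lsm14a, as part of a family share, and some markers, such as H1f8, Gdf9, Bmp15, Ooep and Dppa3, were named beside a result. Some results of the lists are not reported here. Alternatives were other scalings, filters of 1 and 50 CPM, a prior count of 0.5, equal weight of libraries, leaving out each library and DESeq2. Scalings for library overlap and the counts of copies were added after seeing the data.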

Additional observations from a re-analysis of the deposited data

How the results depend on the processing

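Ddx4 and Ddx6 had the lowest levels per kilobase, with as few as 20 and 50 counts in a library. Having 1 sample per group limits every comparison. Scaling by total counts gave members' medians of -0.18 (MO), -0.11 (S31A) and 0.24 (controls), and, as a choice made after seeing the data, 0 members above both controls without overlap with MO and 2 with S31A. Weighting libraries equally left 1 member 2-fold higher with MO. At 50 CPM no member was 2-fold higher with S31A (0) or lower between controls (0), and the median between controls was 0.47. At that filter edgeR called 2 members between controls, and DESeq2, run at 10 CPM only, called 2. Without MO injected library 1, Zar1 was at -0.34 and Lsm14b at -0.36, the reverse of the summed values; leaving out other libraries gave up to 2.66 and 1.66. Leaving out each library in turn gave 0 to 3 members 2-fold higher and 1 to 3 lower with MO, with medians of -0.34 to 0.19. With S31A it gave 0 to 1 lower and medians of -0.10 to 0.35, and between controls 0 to 2 lower and medians of 0.23 to 0.32. The cause was not tested. Shares of all genes under these other settings are not given here, so the counts of members have no background. No paired analysis was possible because each group has 1 sample and the numbers 1 and 2 belong to libraries.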
